A study of Mus musculus with 8 samples.

Results

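The genes of the mitochondrial respiratory chain were examined in RNA-seq libraries of the mouse ventral hippocampus. They were taken as the protein-coding rows of the count table whose GENCODE M21 symbol begins with Nduf, Sdh, Uqcr, Cox, Atp5 or mt-. This rule gave 119 of the 50686 genes of the table, of which 13 are encoded by the mitochondrial genome and 106 by the nuclear genome. The expression filter of edgeR (filterByExpr) kept 116 of them. The other 3, *Cox7b2*, *Cox8b* and *Cox8c*, had too few reads to be tested.

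The libraries came from male C57BL/6J mice of 8 weeks, housed in groups of 4. They were injected in the morning with vehicle (libraries 1 to 4) or with corticosterone at 3 mg/kg (libraries 5 to 8), corticosterone being the main glucocorticoid of rodents. All 8 mice were killed 3 h after the injection, and 1 library was made per mouse from the whole ventral hippocampus. The comparison asks which transcripts differ after an acute rise of the hormone, in tissue that holds neurons, glia and vessels together. In such bulk tissue, fewer cells of a type and less RNA per cell cannot be told apart.

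The respiratory chain sits in the inner mitochondrial membrane and turns the oxidation of nutrients into ATP. Complex I (NADH dehydrogenase) and complex II (succinate dehydrogenase) pass electrons to ubiquinone, complex III (the cytochrome bc1 complex) hands them to cytochrome c, and complex IV (cytochrome c oxidase) gives them to oxygen. Complexes I, III and IV pump protons, and complex V (ATP synthase) uses the resulting gradient. The mitochondrial genome encodes some subunits of complexes I, III, IV and V and is transcribed as long precursors that are cut into single messengers, whereas complex II and all other subunits are made from nuclear genes, each with a promoter of its own. Neurons depend on this pathway to restore ion gradients after firing.

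Between 17492159 and 19931987 reads per library were counted on genes. The 8 markers of hippocampal neurons, among them *Prox1* of dentate granule cells and *Wfs1* of CA1 pyramidal cells, summed to 15569 to 18817 normalized counts per library with vehicle and 16209 to 17757 with corticosterone. The 8 markers of neighbouring forebrain regions were detected as well, at a sum of 1650 to 2623 and 1717 to 2718. Over all 16018 genes tested, edgeR called 1 gene at an adjusted p value under 0.05, *Fkbp5*, a classic target of the glucocorticoid receptor, which rose with a log2 fold change (log2FC) of 0.76 ± 0.10 (SE) and an adjusted p of 0.048 in edgeR. In library composition, vehicle 4 differed from vehicle 1 to 3, as described below. Library corticosterone 5 stood apart from the other 3 of its group. Without it, edgeR called 1651 of 16181 genes. The counts of calls, the medians and a number of members and list genes are also given without it.

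No member of the respiratory chain passed the test in this comparison. With all 8 libraries, edgeR called 0 of the 116 members at an adjusted p under 0.05, beside 0.00624% of all genes tested. DESeq2, which called 0.406% of the genes it tested, called 0 members as well. At an unadjusted p under 0.05, 0 members were higher after corticosterone, where 4.51% of all genes were, and 2 were lower, *Atp5g1* and *Ndufa12*, where 4.52% of all genes were. Vehicle and corticosterone libraries were fully separated in 4 of the 116 members, or 3.45%, which is close to the 3.66% of all genes.

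**Figure D1:**
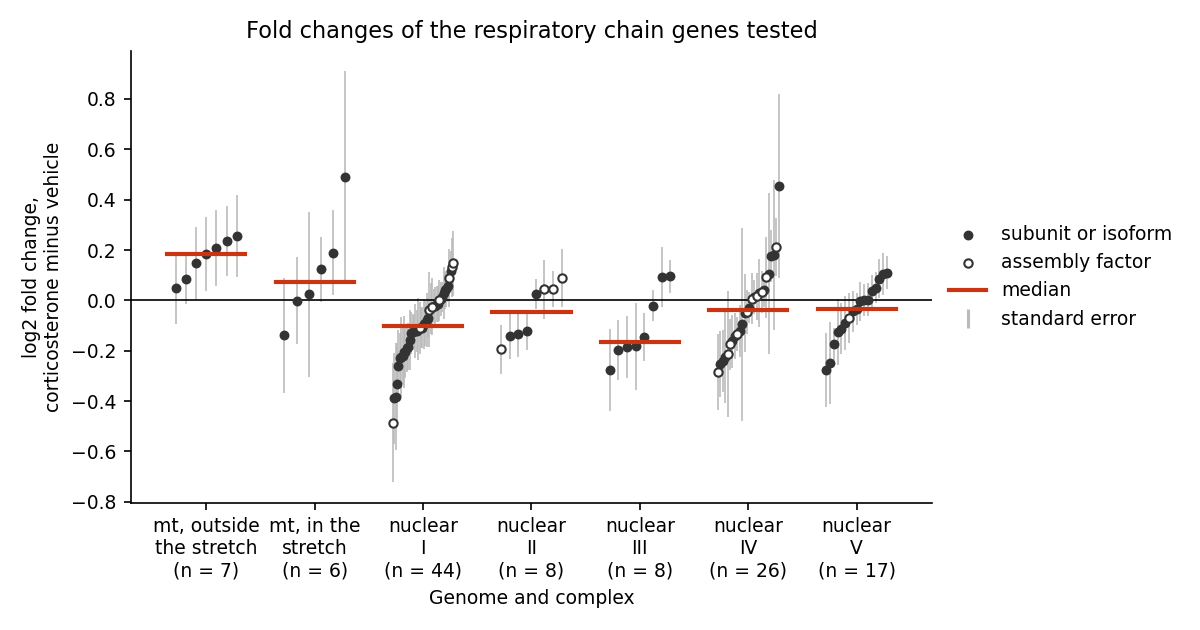
Log2 fold change (corticosterone minus vehicle, edgeR) of the 116 members tested, by genome and complex. Points are genes sorted by value, filled for subunits and isoforms and open for assembly factors, grey lines are standard errors and red lines are medians. The medians run from 0.18 for the 7 mitochondrially encoded genes not wholly inside the stretch copied on chromosome 1 to -0.16 for nuclear complex III.

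The 13 mitochondrially encoded genes spanned a very wide range of read counts. *mt-Co1*, the catalytic core of complex IV, held between 37.2% and 39.4% of their reads in each library. *mt-Cytb*, the subunit of complex III that oxidizes ubiquinol, held between 21.0% and 22.3%. At the other end, *mt-Nd4l*, a small membrane subunit of complex I, had only 6 to 23 reads per library. Per length of transcript, the mean level was 43377 TPM (read counts scaled by transcript length and by the library's sum) for *mt-Co1*, 33191 TPM for *mt-Cytb* and 20657 TPM for *mt-Nd1*, the first gene of complex I on the mitochondrial genome.

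The low counts fell on neighbouring genes. Along the mitochondrial genome, *mt-Co2*, *mt-Atp8*, *mt-Atp6*, *mt-Co3*, *mt-Nd3* and *mt-Nd4l* follow each other, and no library had more than 571 reads on any of them. *mt-Co1* before them had 271546 to 462074 reads, and *mt-Nd4* after them had 75544 to 107828. These 6 genes encode parts of complexes IV, V and I. Among the genes outside the stretch, *mt-Nd6* also had a low count, of 362 to 533 reads, within the range of *mt-Co2*. The 6 genes were set apart after their counts had been seen.

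The same stretch is present in the nuclear genome. On the minus strand of chromosome 1 (GRCm38, chr1:24611535-24616197), 7 annotated pseudogenes repeat mitochondrial sequence. *Gm28661* matches 99.6% of *mt-Co2*, *Gm10925* 99.6% of *mt-Atp6* and *Gm28437* 99.9% of *mt-Co3*, each with 0 mismatches. *Gm28438* matches 99.1% of *mt-Nd3* with 1 mismatch, and *Gm10222* matches 99.0% of *mt-Nd4l* with 0. At the ends of the stretch the copy is partial, with 63.6% of *mt-Nd4* (*Gm28439*) and 31.3% of *mt-Co1* (*Gm29216*). Both genes are counted here with the 7 genes called outside the stretch, although these parts of them are copied. For *mt-Atp8*, which lies between *mt-Co2* and *mt-Atp6*, no annotated copy was matched.

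The first 100 bases of *mt-Co2* and *mt-Nd3* and of their nuclear copies show how close these sequences are (GENCODE M21 transcripts, 5′ to 3′, capitals mark the base that differs). A read from within the *mt-Co2* window fits both places, and in *mt-Nd3* the windows differ by the substitution T3C, counted from 1 at the first base, with the mitochondrial base first.
mt-Co2, chrM:7013-7112, plus strand: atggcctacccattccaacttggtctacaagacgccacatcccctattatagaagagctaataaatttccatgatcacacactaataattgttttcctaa
Gm28661, chr1:24615466-24615565, minus strand: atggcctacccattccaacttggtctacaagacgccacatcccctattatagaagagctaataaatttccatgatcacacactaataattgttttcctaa
mt-Nd3, chrM:9459-9558, plus strand: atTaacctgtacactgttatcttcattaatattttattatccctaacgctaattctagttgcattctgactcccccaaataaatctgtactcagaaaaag
Gm28438, chr1:24613020-24613119, minus strand: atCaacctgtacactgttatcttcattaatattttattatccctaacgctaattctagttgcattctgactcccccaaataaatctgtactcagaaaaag

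The copies themselves held few reads. Their sum was 1138 to 1764 reads per library, with 288 to 410 on *Gm28661* beside 310 to 571 on *mt-Co2*. The table lists 15971 to 25620 reads as aligned to more than 1 place with vehicle and 9036 to 12173 with corticosterone. The groups did not overlap in this number, and its part in the values of genes with near-identical copies was not tested. Reads aligned to more than 1 place are only a part of the reads not assigned to a gene. The levels of the 6 genes inside the stretch are therefore uncertain, and the part of the copy in their low counts was not tested. *mt-Atp8*, with 10 to 21 reads, had a low count without a matched copy. *mt-Nd6* is encoded on the strand opposite to the others and lies outside the copy, and its exon overlaps that of *mt-Nd5* on the other strand.

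**Figure D2:**
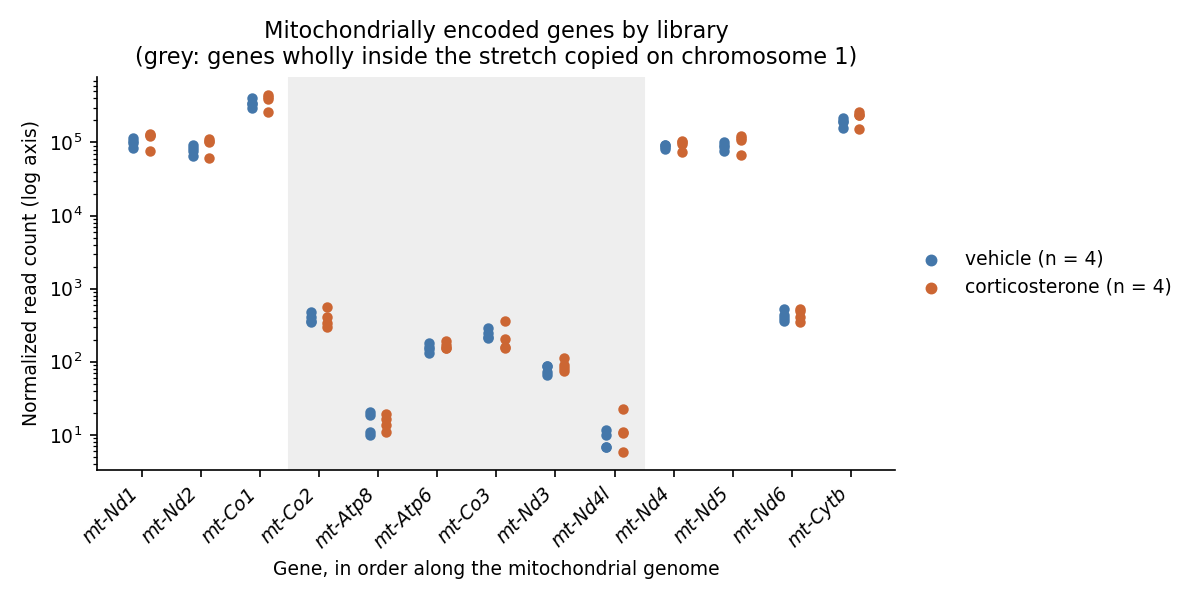
Normalized read counts of the 13 mitochondrially encoded genes in the 8 libraries on a log axis, in genome order, with vehicle in blue and corticosterone in orange. The 6 genes on grey lie wholly inside the stretch copied on chromosome 1 and stay below 600 in every library, and the orange point that lies apart in most genes is corticosterone 5.

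The mitochondrially encoded genes outside the stretch, with the partly copied *mt-Nd4* and *mt-Co1* among them, had higher means after corticosterone, but their groups overlapped. All 7 had a positive log2FC, with a median of 0.18, where the median of all genes tested was 0.0036 and 50.7% had a positive value. *mt-Cytb* had normalized counts of 195406, 188337, 160177 and 214827 in vehicle 1 to 4, and of 154439, 237774, 240392 and 260978 in corticosterone 5 to 8. Corticosterone 5 was the lowest of all libraries, while the other 3 corticosterone libraries were above every vehicle library. The log2FC of *mt-Cytb* was 0.24 ± 0.14 (SE), with an adjusted p of 0.577 in edgeR.

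Corticosterone 5 was the lowest library in the other genes outside the stretch as well. *mt-Co1* had 347102, 340492, 293059 and 402952 normalized counts with vehicle and 264685, 396573, 421217 and 450215 with corticosterone. Its log2FC was 0.15 ± 0.14. *mt-Nd1* had 105152, 98906, 82941 and 115793 normalized counts with vehicle, and 77510, 126474, 122686 and 130729 with corticosterone, and its log2FC was 0.18 ± 0.15. In all 7 genes, corticosterone 5 was the lowest library of its group and vehicle 4 the highest of its own, a place they shared in 19.6% of all genes tested.

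*mt-Nd2* and *mt-Nd5*, which encode proton-pumping subunits of complex I, had a log2FC of 0.26 ± 0.16 and 0.21 ± 0.15. *mt-Nd4*, a further pumping subunit, had 0.09 ± 0.10, and *mt-Nd6* had 0.05 ± 0.14. Adjusted p values of these genes in edgeR ran from 0.59 to 0.905. The share of all gene reads that fell on the 13 genes was 4.73%, 4.67%, 3.91% and 5.32% in vehicle 1 to 4 and 3.67%, 5.61%, 5.78% and 6.15% in corticosterone 5 to 8. The highest share with vehicle lay below those of corticosterone 6 to 8, and the lowest of all libraries was corticosterone 5.

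Inside the stretch, the libraries lay in another order. *mt-Co3*, a core subunit of complex IV, had 249, 288, 218 and 213 normalized counts with vehicle and 357, 207, 159 and 156 with corticosterone. Corticosterone 5 was here the highest library and the remaining 3 were the lowest, with a log2FC of -0.14 ± 0.23. *mt-Co2* had 404, 487, 366 and 351 normalized counts with vehicle and 557, 413, 334 and 302 with corticosterone, and a log2FC near 0 (-0.001 ± 0.17). *mt-Atp6*, of the proton channel of complex V, and *mt-Nd3*, of complex I, had a log2FC of 0.12 ± 0.13 and 0.19 ± 0.17. *mt-Atp8* (0.02 ± 0.33) and *mt-Nd4l* (0.49 ± 0.42) rest on at most 23 reads per library. Without corticosterone 5 the values were 0.04 for *mt-Atp6*, 0.07 for *mt-Nd3*, -0.12 for *mt-Atp8* and 0.03 for *mt-Nd4l*. In each of the 6 genes, corticosterone 5 was the highest library of its group, where it was the lowest in the genes outside the stretch. Their median log2FC was 0.07, with 4 positive and 2 negative values.

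The nuclear members leaned the other way. Of the 103 tested, 68 had a negative and 35 a positive log2FC, with a median of -0.07. The values ran from -0.49 ± 0.24 for *Ndufaf8*, an assembly factor of complex I, to 0.46 ± 0.36 for *Ndufa4l2*. The nuclear genes held 1.17%, 1.25%, 1.17% and 1.09% of the reads in vehicle 1 to 4, and 1.22%, 1.11%, 1.10% and 1.08% in corticosterone 5 to 8. Vehicle 4 lay with corticosterone 6 to 8, and corticosterone 5 lay within the vehicle range. The 80 subunits had a median log2FC of -0.09, and the 23 assembly factors, which build the complexes without staying in them, had a median near 0 (-0.0004).

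By complex, complex III had the lowest median, at -0.16 over 8 genes, followed by complex I at -0.10 over 44 genes. In complex I, 34 genes had a negative and 10 a positive log2FC. The median was -0.12 for its 7 nuclear core subunits, which carry the flavin and the iron-sulphur clusters, and -0.11 for its 29 supernumerary subunits. Complex II had a median of -0.05 over 8 genes, complex IV of -0.04 over 26 genes and complex V of -0.03 over 17 genes. No p value is attached to these medians, since genes of a complex are not replicates.

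In complex V, *Atp5g1* had the smallest p value of the members. It encodes subunit c, which forms the proton-driven rotor ring, and lies at chr11:96068852-96075670 (GRCm38). Its normalized counts were 1929, 1933, 1950 and 1844 in vehicle 1 to 4 and 1685, 1710, 1792 and 1600 in corticosterone 5 to 8. All corticosterone libraries lay below all vehicle libraries, and corticosterone 5 did not stand apart. The log2FC was -0.17 ± 0.06, with an adjusted p of 0.499 in edgeR. The value stayed between -0.20 and -0.15 when each library was left out.

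The same subunit c is encoded by 3 genes whose mature proteins are alike. *Atp5g3* had the largest share, with 80.8% to 84.4% of their summed TPM in each library. *Atp5g1* gave 14.3% to 17.4% and *Atp5g2* 1.28% to 2.10%. These shares rest on the union of exons as length, which was 4912 bases for *Atp5g1* and 2181 for *Atp5g3*. The longest transcript has 4715 bases for *Atp5g1* and 862 for *Atp5g3*. With it, the mean levels were 705 TPM for *Atp5g3*, 56.4 TPM for *Atp5g1* and 13.1 TPM for *Atp5g2*. Both lengths of *Atp5g1* are long, so its share is uncertain. *Atp5g3* had a log2FC of 0.05 ± 0.06 and *Atp5g2*, at a mean of 7.35 TPM, of -0.25 ± 0.16. The value of *Atp5g2* was -0.0095 with the GC and length trends removed and ranged from -0.34 to -0.16 with each library left out. In *Atp5g3*, the vehicle libraries had 3857 to 4254 normalized counts and the corticosterone libraries 4065 to 4338. The groups overlapped, and no difference passed the test in either gene. A near-identical pseudogene, *Gm10039*, matches 411 bases of the *Atp5g1* transcript, from base 53 to base 463. This is 8.7% of a transcript of 4715 bases, and the count of *Atp5g1* is uncertain in this part.

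*Ndufa12*, a supernumerary subunit of complex I at chr10:94198720-94221443, was the other member with an unadjusted p under 0.05. It had 1749, 1694, 1543 and 1409 normalized counts with vehicle and 1633, 1289, 1291 and 1248 with corticosterone. Corticosterone 5 lay among the vehicle libraries and the remaining 3 were lower than all of those. The log2FC was -0.23 ± 0.10, with an adjusted p of 0.545 in edgeR. Without corticosterone 5 it was -0.33 ± 0.08, with an adjusted p of 0.024 in edgeR. A near-identical copy covers 36.2% of its transcript, so its count is uncertain.

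Beside *Atp5g1*, 1 further member was lower without overlap and 2 were higher. *Ndufb9*, a supernumerary subunit of complex I, had 3554, 3318, 3266 and 3229 normalized counts with vehicle and 3184, 2978, 3218 and 2892 with corticosterone. The nearest libraries of the groups lay close together, and the log2FC was -0.12 ± 0.07. *Ndufb2*, also of complex I, had 430, 421, 378 and 428 normalized counts with vehicle and 437, 475, 447 and 437 with corticosterone, and a log2FC of 0.11 ± 0.08. *Atp5o*, the stalk subunit that confers sensitivity to oligomycin, is named because it completes this count. It had 3601, 3141, 3511 and 3472 normalized counts with vehicle and 3714, 3606, 3731 and 3765 with corticosterone, with a log2FC of 0.11 ± 0.06.

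None of these 3 passed the test, with adjusted p values of 0.548 to 0.62 in edgeR. With the GC and length trends removed, the log2FC was -0.032 for *Ndufb9*, 0.029 for *Ndufb2* and 0.16 for *Atp5o*. *Ndufb9* shares exon sequence with *Gm49356* on the same strand and *Ndufb2* with *Gm42420* on the same strand and *Braf* on the other, and *Atp5o* with *D430001F17Rik* and *Gm15976* on the other. The share of non-overlapping members in each direction, 2 of 116, compares with 1.99% of all genes for higher and 1.68% for lower values.

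**Figure D3:**
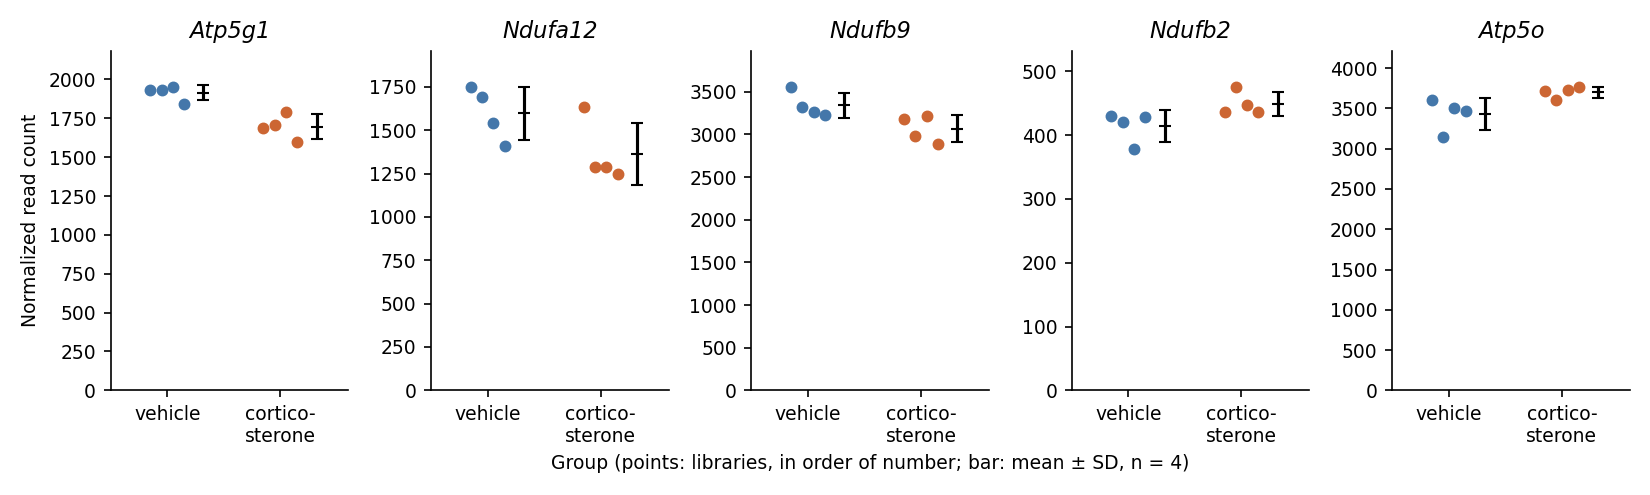
Normalized read counts of the 2 members with an unadjusted p under 0.05 (*Atp5g1* and *Ndufa12*) and of the 4 members whose groups do not overlap (*Atp5g1*, *Ndufb9*, *Ndufb2* and *Atp5o*), with 4 libraries per group as points and the mean ± SD as bars, on axes that start at 0. The groups of *Ndufa12* overlap through corticosterone 5.

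The nuclear members and the mitochondrial genes ordered the libraries in opposite ways. For each gene, the log2 value of a library was taken relative to the mean of the 8 libraries. The median of this deviation over the nuclear members was 0.05, 0.11, 0.04 and -0.06 in vehicle 1 to 4 and 0.10, -0.07, -0.04 and -0.10 in corticosterone 5 to 8. For the 7 mitochondrial genes outside the stretch it was -0.03, -0.11, -0.29 and 0.12 with vehicle and -0.44, 0.18, 0.24 and 0.33 with corticosterone. Vehicle 4 thus had the sign of corticosterone 6 to 8 in both gene groups, and corticosterone 5 that of vehicle 1 to 3.

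The library composition moved in the same way. The slope of all genes on the GC content of their transcripts was positive in vehicle 1 to 3 and corticosterone 5, at 0.61 to 2.03 (log2 per unit of GC fraction). It was negative in vehicle 4 and corticosterone 6 to 8, at -1.87 to -0.88. The transcripts of the 7 mitochondrial genes have a median GC content of 37.1%, and those of the nuclear members of 50.3%. Across the 103 nuclear members, the log2FC had a Pearson correlation of -0.28 with GC content (Spearman -0.35), against -0.41 (Spearman -0.52) across 15983 genes. Genes are not independent replicates, and the part of this slope in the result was not tested.

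**Figure D4:**
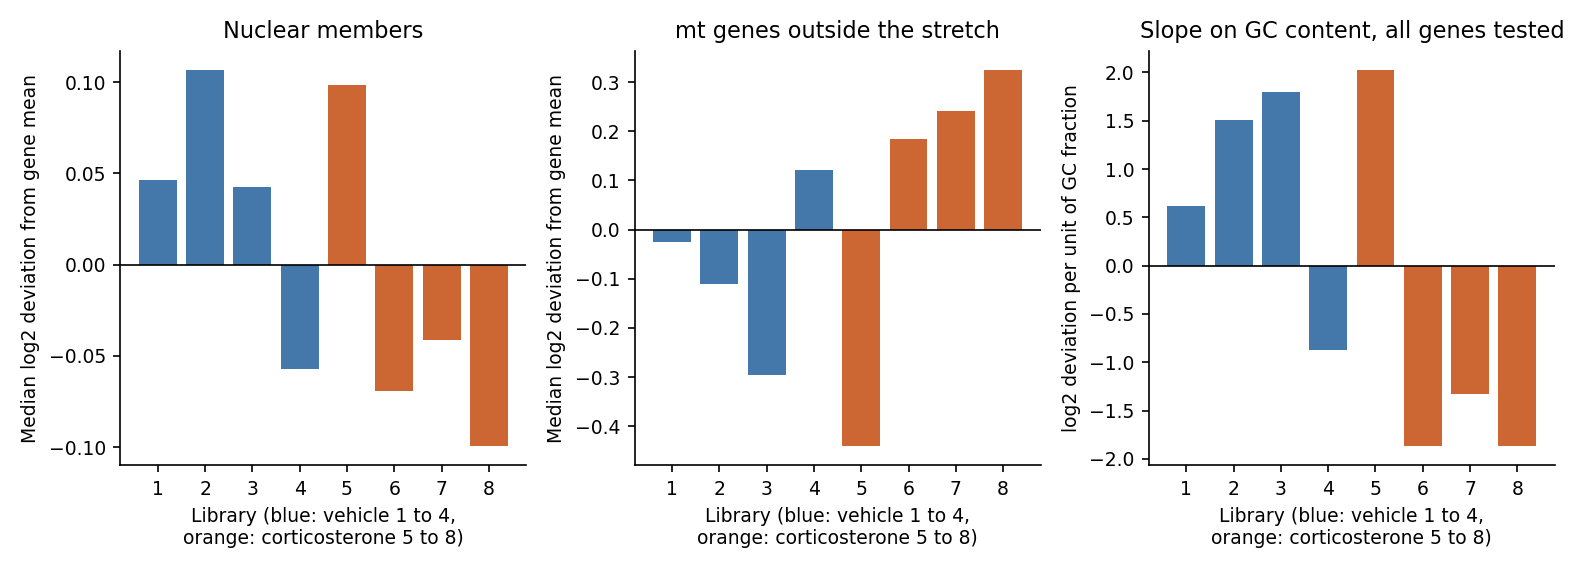
Median log2 deviation of the nuclear members (left), of the 7 mitochondrially encoded genes not wholly inside the stretch (middle), and slope of the log2 deviation on GC content over all genes tested (right), for each library. Vehicle 4 has the sign of corticosterone 6 to 8 in each panel and corticosterone 5 that of vehicle 1 to 3.

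Without corticosterone 5, edgeR called 22 of the 116 members (19.0%), beside 10.2% of all genes tested in that fit. Of these, 4 rose and 18 fell. Among the libraries of this fit, corticosterone 6 to 8 and vehicle 4 had a negative slope on GC content and vehicle 1 to 3 a positive one. Treatment and library composition thus nearly coincide here, and the part of each in these calls was not tested. The 4 that rose were *mt-Nd1*, *mt-Nd2*, *mt-Nd5* and *mt-Cytb*, with a log2FC of 0.33 to 0.42, beside 3.73% of all genes. The 18 that fell were *mt-Co3*, at -0.48, and 17 nuclear genes, beside 6.47% of all genes. This includes 9 genes of complex I (*Ndufa12* among them), 3 of complex III (*Uqcr11*, *Uqcrc1* and *Uqcrq*), 4 of complex IV (*Cox14*, *Cox4i1*, *Cox5b* and *Cox6a1*) and 1 of complex V (*Atp5d*). In complex II, 0 of 8 genes passed the test in this fit of edgeR, and 2 were lower at an unadjusted p under 0.05. At an unadjusted p under 0.05, 13 members were higher and 43 were lower, beside 13.4% and 15.6% of all genes. The median log2FC was then 0.33 for the 7 mitochondrial genes outside the stretch and -0.13 for the nuclear members. Without this library the log2FC of *Ndufaf8* was -0.84 ± 0.15, that of *Uqcr11* -0.47 ± 0.11, that of *Cox6a1* -0.39 ± 0.10, that of *Uqcrq* -0.33 ± 0.09 and that of *Cox4i1* -0.29 ± 0.07, with adjusted p values of 0.013 to 0.031 in edgeR. *Cox7c* (-0.41 ± 0.15), *Cox8a* (-0.22 ± 0.09), *mt-Co1* (0.29 ± 0.09), *mt-Nd4* (0.19 ± 0.07) and *mt-Nd6* (0.15 ± 0.13) also moved away from 0 and did not pass it. *Atp5g1* kept its log2FC at -0.17 but did not pass the test, with an adjusted p of 0.092 in edgeR.

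Removing from each library its trend with GC content and length gave a different picture. With all 8 libraries, edgeR then called 0 members, beside 0.144% of all genes, 0.0813% being higher and 0.0626% lower. At an unadjusted p under 0.05, 1 member was higher and 14 were lower, beside 4.51% and 5.38% of all genes. The median log2FC of the 7 mitochondrial genes outside the stretch went from 0.18 to 0.03 and that of the nuclear members from -0.07 to -0.05. The median went from -0.10 to -0.06 in complex I, from -0.16 to -0.08 in complex III, from -0.04 to -0.0085 in complex IV and from -0.03 to -0.014 in complex V. In complex II it went the other way, from -0.05 to -0.08.

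The levels of the nuclear members, given as TPM over the union of exons, differed widely within each complex. In complex I, the 36 subunits had a median of 183 TPM, from 14.1 for *Ndufb2* to 572 for *Ndufb9*. The length of *Ndufb2* was 5628 bases for the union of exons and 4371 for its longest transcript. It also shares exon sequence with *Gm42420* on the same strand, so its low level is uncertain. The 4 subunits of complex II went from 70.4 for *Sdhc*, a membrane anchor, to 378 for *Sdha*, the flavoprotein that binds succinate. The 8 of complex III went from 179 for *Uqcrq* to 537 for *Uqcr11*, both small supernumerary subunits.

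Complex IV had the highest median, at 556 TPM over 11 subunits, and its *Cox8a* was the most abundant nuclear member at 1920 TPM. Its lowest subunit was *Cox7c*, at 43.5 TPM. The 16 subunits of complex V had a median of 250 TPM and went from 5.74 for *Atp5l* to 1074 for *Atp5b*, the catalytic beta subunit. With the longest transcript as length, *Atp5b* came to 1903 TPM and *Cox8a* to 1731 TPM, so their order depends on the length used. Near-identical copies cover 32.9% of *Cox7c* and 57.4% of the longest protein-coding transcript of *Atp5l*, so their low levels are uncertain. The level of *Atp5l* also depends on the length, which is 6443 bases for the union of exons and 544 bases for that transcript. With the latter as length, an alternative added after the values were seen, *Atp5l* came to 51.8 TPM and *Atp5g2*, at 12.5 TPM, was the lowest of complex V, while the lowest and highest genes of the other complexes were the same. The assembly factors had a median of 28.3 TPM, from 1.26 for *Cox16* to 277 for *Cox7a2l*. *Cox16* shares exon sequence with *Gm20498* on the same strand, so its low level is uncertain.

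**Figure D5:**
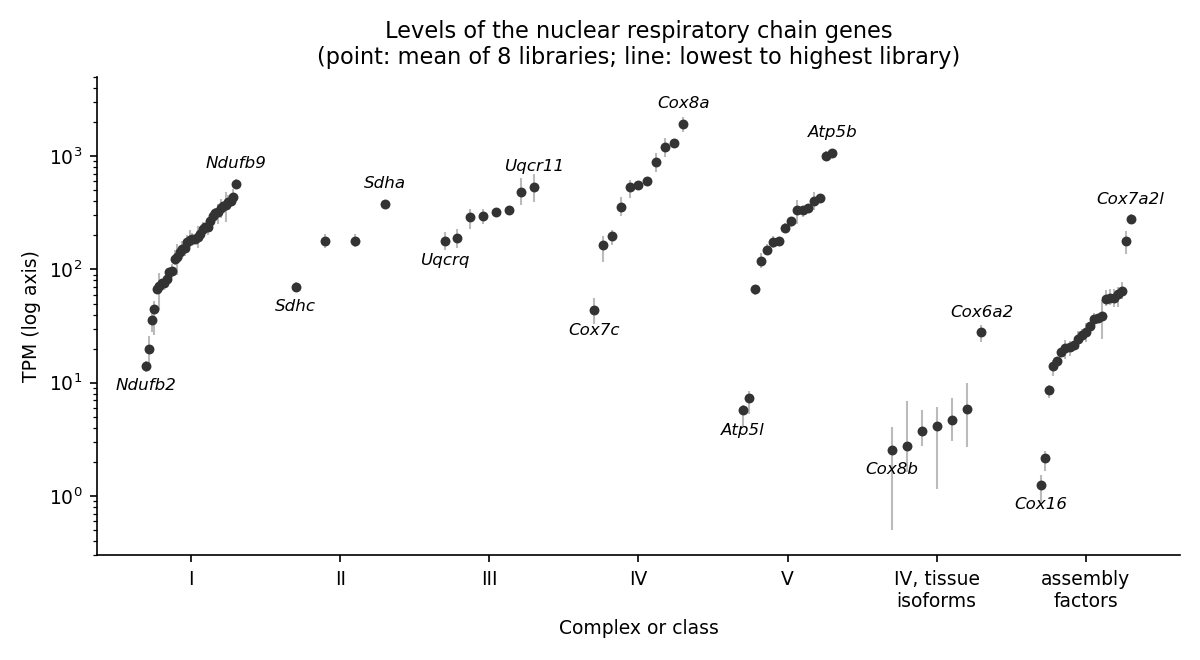
Mean TPM of the nuclear members on a log axis, by complex, with the lowest and highest library as a line and the extreme genes named. *Cox8c*, at 0 in all libraries, is not drawn. The tissue isoforms of complex IV lie between 2.56 TPM and 27.9 TPM, below all of the complex IV subunits.

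Among these highest and lowest members, *Sdha* hardly varied, with 8153 to 8679 normalized counts with vehicle and 8306 to 8768 with corticosterone. *Atp5b* had 23992 to 25916 normalized counts with vehicle and 23317 to 25743 with corticosterone, a log2FC of -0.03 ± 0.06. *Uqcr11* varied far more, with 2093, 2437, 2111 and 1548 normalized counts with vehicle and 2334, 1492, 1538 and 1392 with corticosterone. Vehicle 4 lay with the 3 lowest corticosterone libraries and corticosterone 5 with the other vehicle libraries. *Cox8a* repeated this order, with 7242, 7110, 7048 and 5517 normalized counts with vehicle and 7372, 5909, 5918 and 5546 with corticosterone. The lowest members *Cox7c* (log2FC -0.22 ± 0.18), *Uqcrq* (-0.20 ± 0.12), *Sdhc* (-0.12 ± 0.08) and *Atp5l* (-0.13 ± 0.13) overlapped between the groups as well. With each library left out, *Atp5l* ranged from -0.20 (without corticosterone 7) to -0.025 (without corticosterone 8). In 48 of the 103 nuclear members, or 46.6%, vehicle 4 was the lowest of its group and corticosterone 5 the highest of its own, against 19.8% of all genes tested.

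Complex IV has subunits with alternative genes for particular tissues, and the common forms prevailed here. *Cox4i1* gave 99.5% to 99.7% of the summed TPM of *Cox4i1* and *Cox4i2*, the latter a hypoxia-responsive form found in lung and in pericytes. *Cox6a1* gave 97.1% to 98.4% of the TPM shared with *Cox6a2*, a form of heart and skeletal muscle that is also known from parvalbumin interneurons. *Cox6a2* was nonetheless the most abundant tissue isoform, at 28.3 ± 4.1 TPM with vehicle and 27.4 ± 3.9 TPM with corticosterone (SD, n = 4).

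The remaining isoforms lay near the limit of detection. *Cox7a1* and *Cox8b*, forms of muscle and brown fat, were at 5.90 and 2.56 TPM, and *Cox6b2* and *Cox7b2*, known from testis, at 4.72 and 2.74 TPM. *Cox8c*, also a testis form, had 0 reads in all 8 libraries. *Ndufa4l2*, a hypoxia-induced paralogue of the complex IV subunit *Ndufa4*, was at 4.11 TPM, against 535 TPM for *Ndufa4*. *Cox6a2* shares exon sequence on the opposite strand with *Itgad*, *Ndufa4l2* with *Shmt2* and *Cox4i1* with *Emc8*, and the strand setting of the counting is not given in the sources used here.

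Between the groups, the isoforms did not pass the test. *Cox6a2* had 122, 111, 84.1 and 103 normalized counts with vehicle and 114, 89.0, 112 and 89.6 with corticosterone, a log2FC of -0.05 ± 0.15. *Ndufa4l2* had 16.7, 33.3, 6.85 and 25.7 with vehicle and 26.3, 25.0, 36.8 and 25.3 with corticosterone, a log2FC of 0.46 ± 0.36. The groups overlapped in both. With each library left out, the value of *Ndufa4l2* ranged from 0.16 (without vehicle 3) to 0.78 (without vehicle 2). *Ndufa4* had a log2FC of 0.18 ± 0.10 and *Cox6a1* of -0.25 ± 0.13, and their groups overlapped too. The common forms *Cox6b1* (0.04 ± 0.07), *Cox7a2* (-0.03 ± 0.06) and *Cox7b* (0.01 ± 0.07) had values near 0. *Cox4i2* (0.18 ± 0.30), *Cox6b2* (0.11 ± 0.32) and *Cox7a1* (-0.10 ± 0.38) had few reads and wide errors.

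Markers of the cells in which such isoforms are known were read beside them. At an unadjusted p under 0.05 in edgeR, 4.51% of all genes were higher and 4.52% lower. Of 6 markers of parvalbumin interneurons, 1 was lower at an unadjusted p under 0.05, the potassium channel *Kcnc1* (log2FC -0.20), and *Pvalb* itself had -0.03 ± 0.10. The summed level of these markers was 13376 to 14697 normalized counts with vehicle and 13430 to 13990 with corticosterone. Of 8 pericyte markers, 5 had a positive and 3 a negative log2FC, with a median of 0.05. At an unadjusted p under 0.05, 0 were higher and 2 were lower, *Pdgfrb* (-0.31, without overlap) and *Cspg4* (-0.37), with a summed level of 2787 to 3198 and 2762 to 3134 normalized counts. Of 8 muscle markers, 5 were too low to be tested, and of the other 3, 2 had a positive and 1 a negative log2FC, with no p under 0.05. The muscle list summed to 428 to 538 normalized counts with vehicle and 354 to 652 with corticosterone, and *Ckm*, the creatine kinase of muscle, had 0 reads in 7 libraries and 2 in corticosterone 5.

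Markers of further cell types were read in the same way. Of 6 microglial markers, 2 were lower without overlap, *Cx3cr1* (log2FC -0.76) and *P2ry12* (-0.47), where 1.68% of all genes were, and the list summed to 7039 to 7270 normalized counts with vehicle and 5564 to 6993 with corticosterone. Of 6 oligodendrocyte markers, all with a negative log2FC, 3 were lower at an unadjusted p under 0.05, where 4.52% of all genes were. These were *Mbp* (-0.46), *Mag* (-0.40) and *Cnp* (-0.35). The list summed to 59248 to 103846 normalized counts with vehicle, with a median of 71895, and to 57921 to 71671 with corticosterone, so the groups overlapped and 1 vehicle library lay far above the rest. Of 5 choroid plexus markers tested, 2 were higher at that threshold, *Clic6* (1.16) and *Otx2* (1.04), where 4.51% of all genes were. Their list summed to 418 to 1320 normalized counts with vehicle and 624 to 1389 with corticosterone. Of 5 erythrocyte markers, all had a negative log2FC with a median of -0.53, and *Hba-a1* (-0.79) was lower at that threshold. Their sum was 1591 to 5045 normalized counts with vehicle, with a median of 1980, and 1545 to 2013 with corticosterone, so that here too 1 vehicle library lay far above the rest. Of 6 endothelial markers, all were negative with a median of -0.15, and *Cldn5* (-0.72) was lower at that threshold. Of 6 astrocyte markers, 5 were negative with a median of -0.08, and *Gja1* (-0.15) was lower, without overlap. None passed the adjusted threshold of edgeR with all 8 libraries. Without corticosterone 5, edgeR called 4 microglial markers, all lower, with *Cx3cr1* at -0.90, *Tmem119* at -0.59, *P2ry12* at -0.41 and *Csf1r* at -0.24. It then also called *Mbp* (-0.64), *Mag* (-0.56), *Cldn5* (-1.01), *Neurod2* (-0.46), *Cspg4* (-0.53), *Kcnc1* (-0.25) and the muscle actin *Acta1* (-0.62) as lower, and 0 markers of the choroid plexus, erythrocyte and astrocyte lists. The part of these cells in the levels of the respiratory chain genes was not tested.

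Promoters of the nuclear members were searched for the sites of known regulators of respiratory genes. RefSeq promoters (GRCm38.p6, 250 bases before to 50 after the start) were matched for 87 of the 106 nuclear members and searched on both strands. Of these, 38 held at least 1 of the motifs searched and 49 held none. The site of NRF-1 was taken as GCGCA joined to its reverse complement TGCGC, and was found in 8.05% of the members, against 2.18% of 11091 genes tested here and 1.07% of all 27025 promoters. The GABP site CCGGAAG was found in 29.9% of the members, against 18.4% and 9.93%. The YY1 site AAGATGGCG was found in 10.3%, against 3.28% and 1.64%, and the site of ERR alpha, TCAAGGTCA, in 2.30%, against 0.343% and 0.466%. The GABP site was found in 6 of 39 promoters of complex I (15.4%), 5 of 7 of complex II (71.4%), 2 of 5 of complex III (40.0%), 8 of 21 of complex IV (38.1%) and 5 of 15 of complex V (33.3%).

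The full palindromic site of the glucocorticoid receptor, AGAACA and TGTTCT with 3 free bases between them, was found in 0 of the 87 promoters and in 0.0111% of all promoters. These are matches of letters in a short window and not sites shown to be bound. The 3 subunits with the highest TPM among those with more than 1 kind of motif are shown, followed by *Atp5g1* as the member of smallest p, which held none of the motifs. Capitals mark the motifs, read 5′ to 3′ along the strand of the gene.
Cox6a1, chr5:115348909-115349208, minus strand, NRF-1 and GABP: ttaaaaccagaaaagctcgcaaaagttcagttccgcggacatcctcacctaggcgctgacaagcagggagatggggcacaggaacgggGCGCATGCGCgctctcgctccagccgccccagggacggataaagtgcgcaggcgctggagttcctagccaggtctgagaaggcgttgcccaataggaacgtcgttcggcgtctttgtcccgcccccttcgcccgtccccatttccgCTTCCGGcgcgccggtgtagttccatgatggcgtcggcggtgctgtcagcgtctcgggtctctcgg
Atp5k, chr5:108434350-108434649, minus strand, NRF-1 and GABP: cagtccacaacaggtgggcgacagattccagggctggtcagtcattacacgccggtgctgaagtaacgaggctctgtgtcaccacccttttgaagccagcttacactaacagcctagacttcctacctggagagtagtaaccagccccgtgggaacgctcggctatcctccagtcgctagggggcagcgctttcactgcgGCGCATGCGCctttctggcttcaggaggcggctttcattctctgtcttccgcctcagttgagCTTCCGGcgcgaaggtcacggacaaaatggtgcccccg
Sdhd, chr9:50603800-50604099, minus strand, GABP and ERR alpha: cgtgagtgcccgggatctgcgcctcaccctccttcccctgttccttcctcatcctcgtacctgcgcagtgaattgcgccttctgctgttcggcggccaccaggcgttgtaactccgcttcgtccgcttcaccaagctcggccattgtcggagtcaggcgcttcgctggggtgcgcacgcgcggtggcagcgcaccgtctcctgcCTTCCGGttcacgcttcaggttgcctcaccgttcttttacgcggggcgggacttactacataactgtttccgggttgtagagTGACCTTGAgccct
Atp5g1, chr11:96075582-96075881, minus strand, no motif: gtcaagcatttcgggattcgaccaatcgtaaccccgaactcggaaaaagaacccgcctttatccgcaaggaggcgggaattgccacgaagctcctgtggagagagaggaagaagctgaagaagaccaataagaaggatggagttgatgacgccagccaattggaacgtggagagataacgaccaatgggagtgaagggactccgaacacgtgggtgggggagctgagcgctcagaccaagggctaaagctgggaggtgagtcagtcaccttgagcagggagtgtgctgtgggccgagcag

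None of these 4 genes passed the test between the groups. *Cox6a1*, a nuclear subunit of complex IV, had 5438, 5312, 5445 and 3886 normalized counts with vehicle and 5387, 3834, 3852 and 3784 with corticosterone. *Atp5k*, the small subunit e that helps ATP synthase to form dimers, had a log2FC of -0.09 ± 0.11. *Sdhd*, the membrane anchor of complex II, had -0.14 ± 0.09. Without corticosterone 5, *Atp5k* and *Sdhd* each had -0.21, and neither passed the test.

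The genes that serve the chain under other names were read from lists, beside the 4.51% of all genes that were higher and 4.52% lower at an unadjusted p under 0.05. The list of electron carriers and further chain parts held 9 genes, all tested, of which 1 was higher and 0 were lower at an unadjusted p under 0.05. *Etfdh*, which feeds electrons from fatty acid oxidation to ubiquinone, was the gene that was higher (log2FC 0.19 ± 0.09). *Cyc1*, the cytochrome c1 of complex III, had -0.23 ± 0.14 and *Cycs*, cytochrome c itself, 0.10 ± 0.17. Of 26 assembly factors under other names tested, 1 was higher, *Cmc1* (0.26 ± 0.11), a factor of complex IV whose groups did not overlap, and 0 were lower.

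Of 16 genes for transcription and replication of mitochondrial DNA, 2 were higher and 2 were lower at an unadjusted p under 0.05, where 4.51% and 4.52% of all genes were, and 1 was higher and 1 lower without overlap. *Mterf2*, of the family of mitochondrial transcription termination factors, had 244, 205, 200 and 236 normalized counts with vehicle and 284, 281, 321 and 328 with corticosterone. All corticosterone libraries were above all vehicle libraries, with a log2FC of 0.46 ± 0.11 and an adjusted p of 0.25 in edgeR. *Mterf1a* had 0.55 ± 0.22. *Polrmt*, the mitochondrial RNA polymerase, had -0.28 ± 0.12, and *Twnk*, the helicase Twinkle, had -0.22 ± 0.09 and was the gene that was lower without overlap. *Tfam*, which packages mitochondrial DNA and starts its transcription, had 0.06 ± 0.09.

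Of 12 regulators of mitochondrial biogenesis, *Esrrg* was higher (0.25 ± 0.10) and *Esrra* lower (-0.37 ± 0.14) at an unadjusted p under 0.05. *Ppargc1a*, the coactivator PGC-1 alpha, had 0.11 ± 0.11. Of 13 enzymes of the citric acid cycle, which shares complex II with the chain, 0 had an unadjusted p under 0.05 in edgeR, and their median log2FC was -0.03. Of this list, *Suclg2* was lower without overlap (-0.11 ± 0.09). No gene of these lists passed the adjusted threshold with all 8 libraries. Without corticosterone 5, edgeR called *Mterf2* (0.49) as higher and *Polrmt* (-0.39), *Esrra* (-0.52), *Cyc1* (-0.40) and *Atpif1*, the inhibitor of ATP synthase (-0.25), as lower.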

How the data were processed

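RNA-seq of mRNA-enriched, stranded libraries was made from 8 mice, 1 library per mouse. The authors aligned the paired reads with GSnap to mm10 and counted them per gene with HTSeq (named in the submitters' processing notes). They deposited raw read counts without normalization, and the sources used here do not give the annotation release or the strand setting. All 8 count columns were used and 0 left out. Reads that HTSeq assigned to no gene or to several stayed out of library sizes and tests: no feature took 5.40% to 5.89% of the table and ambiguous reads 1.25% to 1.67%.

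GENCODE M21 (GRCm38) named 50376 of the 50686 identifiers. A second *Atp5o* entry of that annotation is not a row of the table. Counts were TMM-normalized and tested with the quasi-likelihood test of edgeR 4.0.16 (R 4.3.3, filterByExpr, Benjamini-Hochberg over all 16018 genes, threshold 0.05). Log2 values used a prior count of 2. TPM used union exon lengths, with transcript lengths as alternatives. Near-identical copies were found with blastn 2.17.0 (at least 98% identity over at least 100 bases). Alternatives were DESeq2 1.42.0, limma-voom (limma 3.58.1), other normalizations and filters, removal of GC and length trends (splines with 5 degrees of freedom) and each library left out. Scripts were tested on simulated data.

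The members and lists were chosen with earlier results of these data known. Named were all mitochondrial genes, the highest and lowest subunit per complex, members and list genes with an unadjusted p under 0.05 (at most 5 members, or 3 list genes, in each direction), the isoforms of complex IV and the genes of subunit c. Other genes were named after their values were seen.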

Additional observations from a re-analysis of the deposited data

Results flagged for a closer look

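Dixon's limit was applied to 86 sets of 4 libraries (the named members and the shares of reads, in each group). In 13 sets, a library was flagged as lying apart from the other 3 of its group by more than this limit. For independent sets, chance gives about 1 in 20, or 4.3. These sets come from the same 8 libraries and are not independent, so these numbers are no test. In the corticosterone group, 8 of these flags fell on corticosterone 5, with normalized counts of 77510 for *mt-Nd1* (the others 122686 to 130729), 2334 for *Uqcr11* (1392 to 1538), 2103 for *Uqcrq* (1455 to 1546), 334 for *Cox7c* (203 to 224), 1633 for *Ndufa12* (1248 to 1291), 8776 for *Cox4i1* (6174 to 6592), 5387 for *Cox6a1* (3784 to 3852) and 3615 for *Cox7b* (4064 to 4085). It was lower than its group in *mt-Nd1* and *Cox7b* and higher in the other 6. Corticosterone 7 stood apart in *Ndufa4l2*, with 36.8 beside 25.0 to 26.3.

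In the vehicle group, 3 flags fell on vehicle 4, which had 1137 normalized counts of *Sdhc* (the others 1329 to 1360), 5517 of *Cox8a* (7048 to 7242) and 3886 of *Cox6a1* (5312 to 5445). Vehicle 3 stood apart in *Ndufb2*, with 378 beside 421 to 430.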

How the results depend on the processing

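No paired analysis was possible because no replicate number occurs in both groups. The number of genes called among all genes was 1 in the fit reported, 64 with DESeq2, 79 without a filter on low counts, 23 with the GC and length trends removed, and 0 with normalization from nuclear genes or with at least 10 counts in every library. With each library left out it ranged from 0 to 1651, with 19 without vehicle 1 and 1651 without corticosterone 5. The number of members called was 0 in the fit reported and in all settings that kept the 8 libraries, and ranged from 0 to 22 with each library left out, the 22 being without corticosterone 5.

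The medians by complex and the shares of reads kept their direction in these settings, except the median of the 6 mitochondrial genes inside the stretch, which was -0.05 without corticosterone 5 and -0.05 with the trends removed. With each library left out, the median of the 7 genes outside the stretch ranged from 0.10 (without vehicle 3) to 0.33 (without corticosterone 5), and that of the nuclear members from -0.13 (without corticosterone 5) to -0.04 (without corticosterone 8). The number of members lower at an unadjusted p under 0.05 was 2 in the fit reported (4.52% of all genes), 5 with DESeq2 (2.83%), 5 with limma-voom (4.86%) and 17 without a filter on low counts (4.85%). It ranged from 0 without corticosterone 8 (2.61%) to 43 without corticosterone 5 (15.6%), with 22 without vehicle 4 (8.74%). The share on the mitochondrially encoded genes was higher with corticosterone by 0.64 percentage points, with a range of 0.36 to 1.19 over the libraries left out. The value of 1.19 was without corticosterone 5.

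The log2FC changed sign with the trends removed in 20 of the 116 members. Among those named by rule these were *mt-Nd4* (-0.090), *mt-Nd6* (-0.11), *mt-Atp6* (-0.0045), *mt-Atp8* (-0.11), *Sdha* (-0.016), *Cox8a* (0.043) and *Cox7b* (-0.090). *mt-Co2* changed sign with upper-quartile normalization (7.37e-05) and with at least 10 counts in every library (0.00025). The cause of these changes was not tested. With each library left out, it changed sign in 7 (without vehicle 3 or corticosterone 6) to 12 members (without vehicle 4), and in 10 without corticosterone 5. Among those named by rule these were *mt-Co2* (-0.20 to 0.11), *mt-Atp8* (-0.13 to 0.21), *mt-Nd6* (-0.043 to 0.16), *Cox6a2* (-0.14 to 0.028), *Cox6b2* (-0.15 to 0.32), *Cox7a1* (-0.34 to 0.23), *Cox7b* (-0.019 to 0.054) and *Cox4i2* (-0.038 to 0.32). Counting depth limits the genes with few reads, such as *mt-Nd4l* with 6 to 23 reads per library. Among the values of single members, the unadjusted counts and the range of levels, 379 kept their direction and their side of the threshold with all 8 libraries, 11 moved and 9 changed sign. With a library left out, 346 kept both, 20 moved, 24 changed sign and 10 passed the threshold that they had missed.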
